A study of Mus musculus with 15 samples.

Results

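The 48 genes described here act in DNA replication and S phase, and were taken by their listed symbols from the 24411 genes that the count files hold. Each was found in the files and each passed the filter on low counts. They were measured by RNA-seq of polyadenylated RNA from mouse liver in 15 libraries. Of these, 6 were labelled LATS KO, with LATS deleted, 5 were labelled Yap OE, with Yap overexpressed, and 4 were labelled TdTomato, a red fluorescent protein, and served as controls that the series' design text calls wild type. The labels used here give no strain, age, sex, Cre line, promoter, cell type of the deletion or time point for any group. They also do not say which LATS gene was deleted, and do not tie libraries to animals. The p-values therefore measure only how far these libraries spread, which may be technical.

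DNA is copied once per cell cycle. In G1, the origin recognition complex, Cdc6 and Cdt1 load the ring-shaped MCM helicase onto origins, a step called licensing. At the start of S phase, kinases and loading factors turn the ring into an active helicase, and polymerases, the sliding clamp, its loader and a ligase then copy both strands. Nucleotide-making enzymes, histone chaperones and checkpoint proteins work alongside the fork. Most of these genes are targets of E2F transcription factors, which are held back by the retinoblastoma family in resting cells. Hepatocytes of an adult liver are mostly resting, and enter S phase after injury or partial hepatectomy. LATS kinases of the Hippo pathway phosphorylate the coactivator YAP and keep it out of the nucleus, where it works with TEAD factors and promotes growth.

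Gene counts ranged from 6166680 to 28225360 per library. In LATS KO 3 and TdTomato 1, unmapped reads made up 89.9% and 78.5%, while they made up 2.53% to 16.7% elsewhere, and 9710 and 8501 genes were detected, against at least 13372. In LATS KO 3, 6 of the 48 genes had 0 counts, and in TdTomato 1, 30 of the 48, so that results are given with and without these 2 libraries. Lats1 had 14.5, 10.5, 0, 27.4, 18.1 and 22.3 CPM (counts scaled to library size, with TMM factors) in LATS KO and 0, 44.5, 46.0 and 28.7 CPM in TdTomato, and did not pass the test (log2 fold change −0.94 ± 1.00, adjusted p = 0.620). Lats2 had 29.2, 41.0, 7.67, 16.9, 17.3 and 14.0 CPM in LATS KO and 0, 19.6, 19.1 and 17.4 CPM in TdTomato (log2 fold change 0.58 ± 0.75, adjusted p = 0.695). TdTomato 1 and LATS KO 3 both had 0 CPM of Lats1. Among the other libraries, every LATS KO library was below every TdTomato library for Lats1, while Lats2 overlapped. Gene counts include exons outside a deleted part, so they do not check the deletion. Yap1 rose in Yap OE, with 212, 184, 146, 196 and 181 CPM against 94.9, 115, 103 and 103 CPM in TdTomato (log2 fold change 0.82 ± 0.17, adjusted p = 0.00433).

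Some of the replication genes rose in LATS KO livers, and most of them in Yap OE livers, relative to TdTomato livers. In LATS KO, 20 of the 48 rose and 0 fell at an adjusted p under 0.05 in edgeR's quasi-likelihood test, which adjusts over all 13055 genes tested. Of all genes tested, 11.0% passed in that comparison, 10.0% as higher and 0.973% as lower. At an unadjusted p under 0.05, 34 of the 48 were higher and 0 lower, against 20.0% higher and 5.23% lower over all genes. In Yap OE, 31 rose and 1, Mcm10, fell, against 28.7% of all genes called, 17.9% higher and 10.8% lower. The median log2 fold change of the 48 was 2.09 in LATS KO and 2.43 in Yap OE, beside 0.13 and 0.17 over all genes tested. Both comparisons use the same 4 TdTomato libraries, so their results are not independent of each other. In bulk tissue, fewer cells of a type and less RNA per cell cannot be told apart.

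The groups were also set side by side without a model. In 21 of the 48 genes every LATS KO library was above every TdTomato library, against 6.65% of all genes tested. In 39 every Yap OE library was above every TdTomato library, and in 1, Mcm10, every one was below, against 28.3% and 13.4% of all genes. DESeq2 called 37 of the 48 higher in LATS KO and 0 lower, with 19.4% of all genes higher, and limma voom called 21 higher and 0 lower, with 16.2% of all genes higher. When LATS KO and TdTomato were fitted alone, 0 of the 48 were called in that comparison, as were 0% of all 12020 genes tested as higher. Without TdTomato 1 and LATS KO 3, 29 of the 48 rose in LATS KO, beside 13.7% of 13256 genes tested. In Yap OE 42 then rose and 1 fell, beside 27.2% higher and 21.2% lower. Of the 20 genes called in LATS KO, 17 were also called in that reduced fit, and Mcm7, Pcna and Tk1 were not (adjusted p = 0.0685, 0.0737 and 0.116). All 32 genes called in Yap OE were also called there. Calls that stood when any 1 of the 15 libraries was left out numbered 5 in LATS KO (Cdc6, Mcm5, Rrm2, Uhrf1 and Clspn) and 18 in Yap OE.

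**Figure D1:**
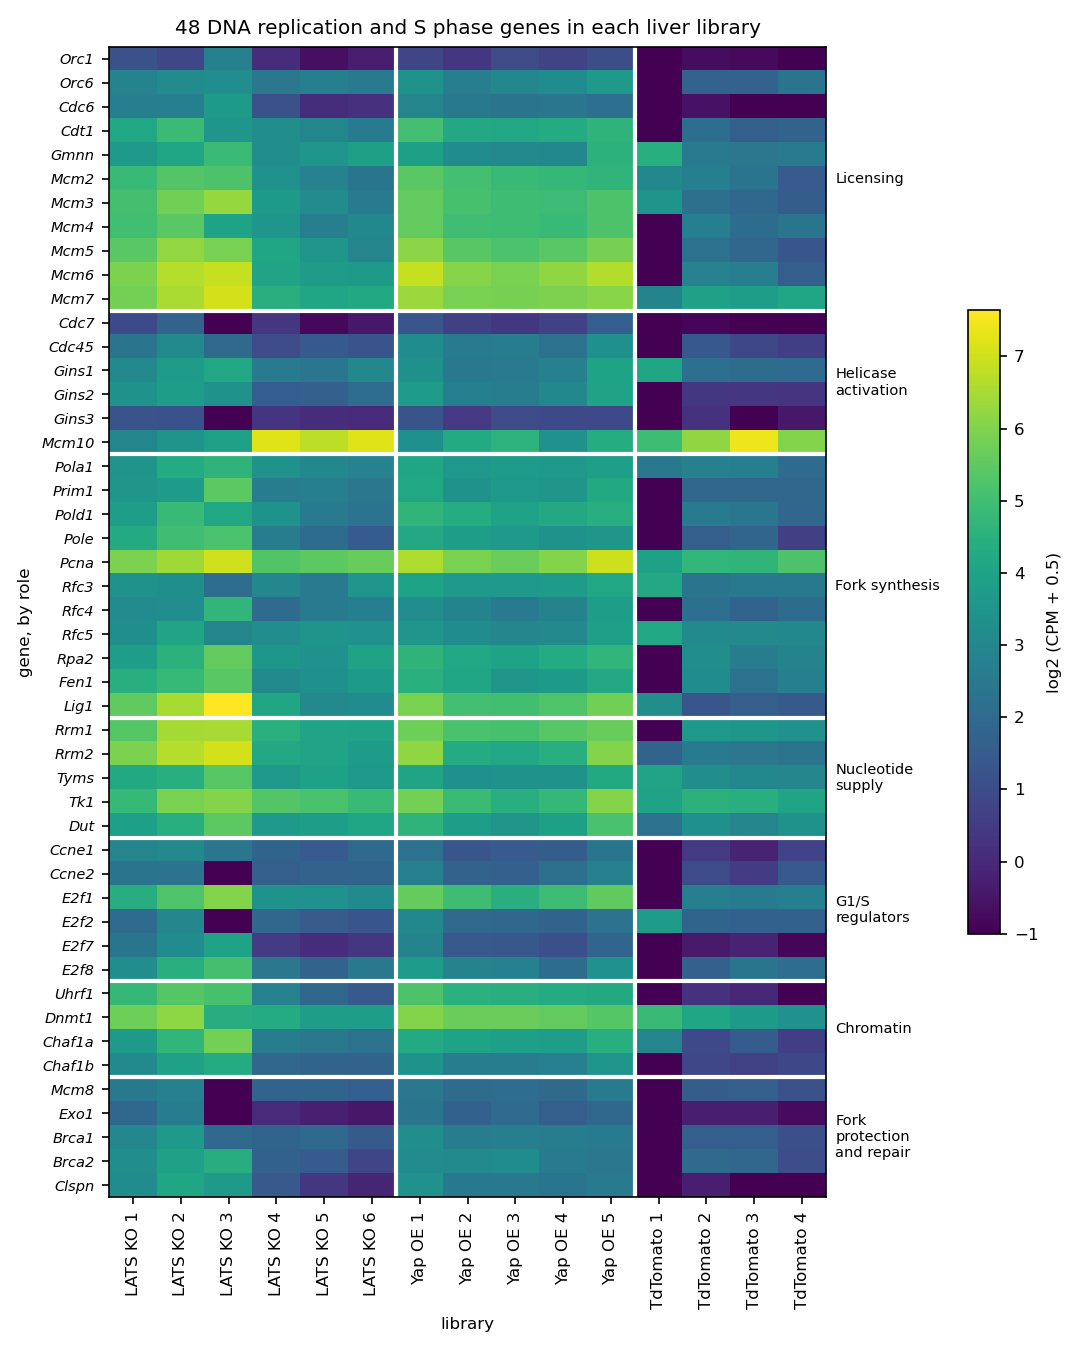
Level of each of the 48 genes in each library, with genes in rows by role and libraries in columns, LATS KO and Yap OE left of TdTomato. The 4 TdTomato libraries have the lowest medians over the 48 genes, at 0 to 3.89 CPM (darker is lower). Mcm10 is brighter in TdTomato than in every Yap OE library.

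**Figure D2:**
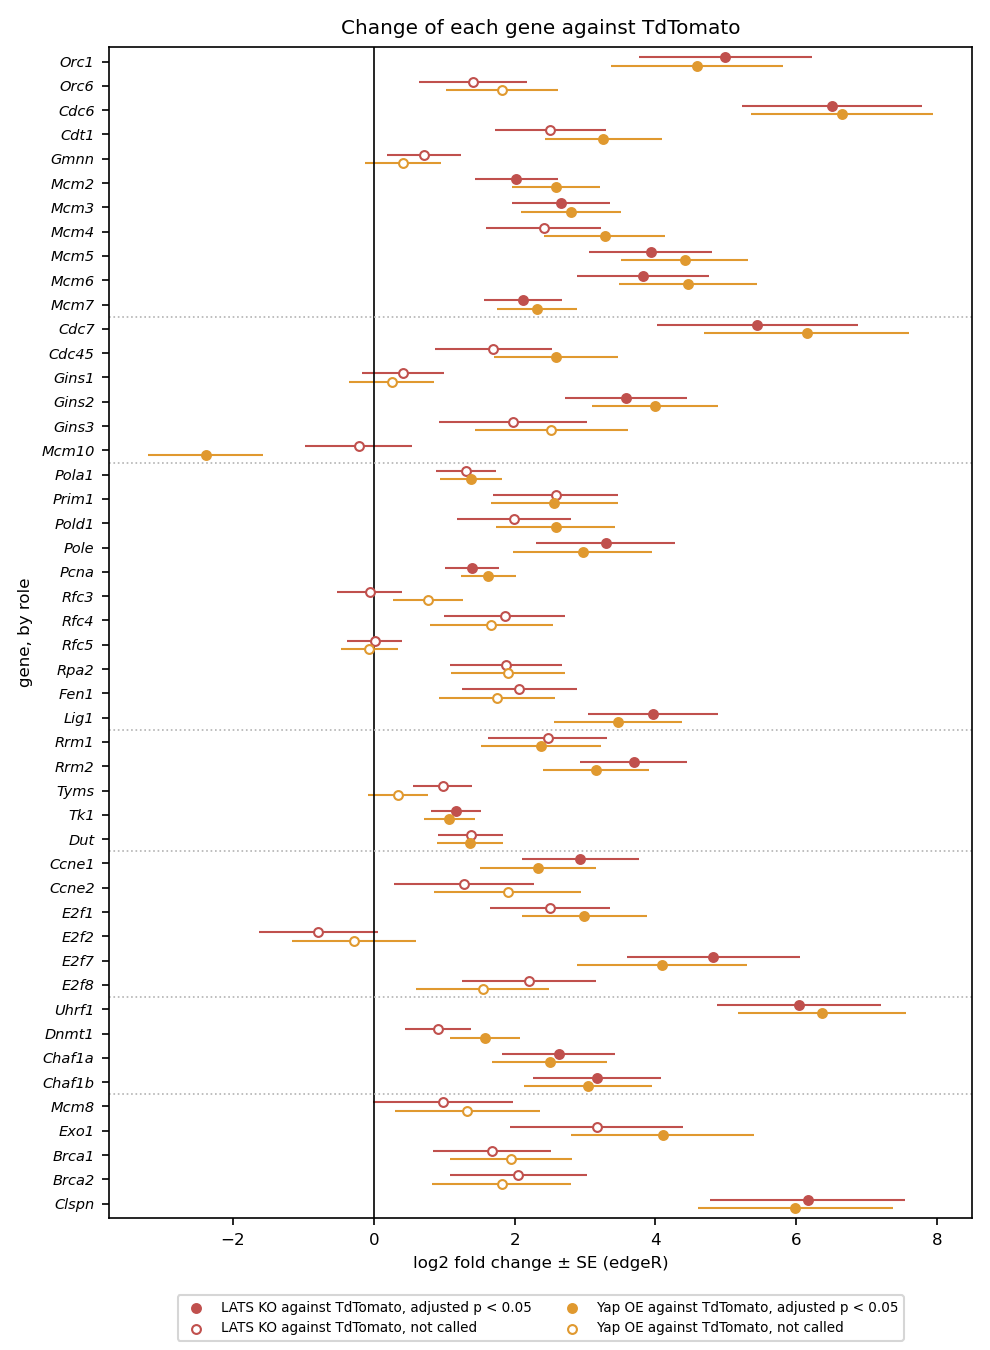
Log2 fold change against TdTomato with its SE for each gene, from edgeR, with LATS KO above Yap OE in each row and filled points for an adjusted p under 0.05. Filled points lie to the right of 0 for 20 genes in LATS KO and 31 in Yap OE, and to the left for Mcm10 in Yap OE; the fitted values of Orc1, Cdc6 and Cdc7, with at most 3 control counts, depend on the prior count.

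RefSeq promoter windows of 300 bases, 250 before the annotated start to 50 after it (GRCm38.p6), were matched for 41 of the 48 genes, 50 windows in all. Gmnn, Mcm4, Gins1, Gins2, Pole, Ccne2 and Exo1 had no entry in the table used. An E2F motif, spelled TTTCCCGC, TTTGGCGC, TTTGCCGC or TTTCGCGC and read on both strands, was present in 19 of the 50 windows (38.0%). Over the windows of all genes tested it was present in 482 of 12741 (3.78%), and over all windows of the table in 2.26%. Among windows of genes called higher in either comparison, 14 of 34 held it (41.2%), and among the other member windows 5 of 16 (31.3%). CCAAT, the box of NF-Y, was in 60.0% of member windows and 37.6% of those of genes tested. The CHR motif (TTTGAA or TTCGAA), bound in cell cycle promoters, was in 22.0% and 13.9%, and the TEAD motif CATTCC in 6 of 50 and 12.5%. Over all windows of the table, CCAAT, CHR and TEAD motifs were in 37.4%, 19.2% and 14.7%. The CHR motif was in 6 of 34 windows of genes called higher and 5 of 16 of the other member windows. These are matches of letters, with no measurement of binding, and the motifs can overlap.

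**Figure D3:**
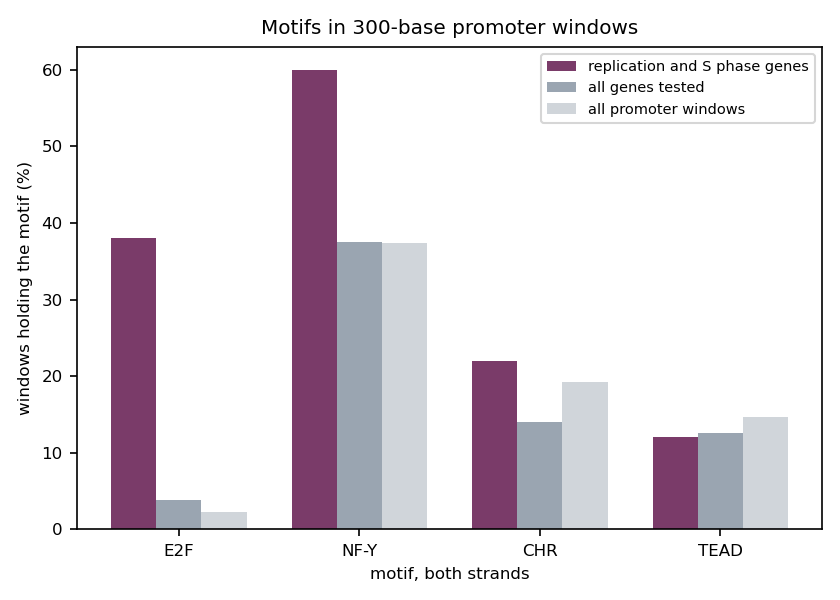
Percent of 300-base promoter windows that hold each motif on either strand, for the 48 genes (50 windows of 41 genes), all genes tested and all windows. The E2F bars are 38.0%, 3.78% and 2.26%, and the TEAD bars 6 of 50, 12.5% and 14.7%.

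Stretches before the start of 5 genes are shown because these genes had the clearest calls or, in the case of Mcm10, because it fell in Yap OE. Capitals mark E2F matches, bases read 5′ to 3′ on the strand of the gene, and bases that GENCODE M21 annotates as exon are left out. Cdc6 (chr11:98907801-98923940, + strand) is shown over chr11:98907982-98908150, within an intron of another GENCODE transcript of the gene, with a match that begins 138 bases before the RefSeq start. Mcm5 (chr8:75109569-75128439, + strand) is shown over chr8:75109259-75109508, with overlapping matches at 153 and 149 bases before the start. Uhrf1 (chr17:56303321-56323486, + strand) is shown over chr17:56304063-56304312, also within a GENCODE intron, with a match at 185 bases before the start of its second RefSeq window. Rrm2 (chr12:24708241-24714146, + strand, shown over chr12:24708004-24708240) and Mcm10 (chr2:4989714-5012791, − strand, shown over chr2:5012792-5013041) held none of the E2F spellings in their windows.
Cdc6: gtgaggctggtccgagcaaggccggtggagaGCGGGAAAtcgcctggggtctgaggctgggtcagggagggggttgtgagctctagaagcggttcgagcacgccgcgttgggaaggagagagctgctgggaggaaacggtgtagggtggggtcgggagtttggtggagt
Mcm5: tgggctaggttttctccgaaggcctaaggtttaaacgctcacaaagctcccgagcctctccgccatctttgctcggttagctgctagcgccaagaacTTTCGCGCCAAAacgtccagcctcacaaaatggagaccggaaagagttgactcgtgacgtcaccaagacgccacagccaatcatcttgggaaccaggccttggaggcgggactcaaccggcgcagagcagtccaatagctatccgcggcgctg
Uhrf1: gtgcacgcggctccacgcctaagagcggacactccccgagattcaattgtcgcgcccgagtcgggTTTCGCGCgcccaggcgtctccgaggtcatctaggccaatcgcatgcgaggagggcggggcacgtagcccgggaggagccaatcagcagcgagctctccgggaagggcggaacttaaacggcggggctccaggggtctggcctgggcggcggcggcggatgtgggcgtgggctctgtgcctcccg
Rrm2: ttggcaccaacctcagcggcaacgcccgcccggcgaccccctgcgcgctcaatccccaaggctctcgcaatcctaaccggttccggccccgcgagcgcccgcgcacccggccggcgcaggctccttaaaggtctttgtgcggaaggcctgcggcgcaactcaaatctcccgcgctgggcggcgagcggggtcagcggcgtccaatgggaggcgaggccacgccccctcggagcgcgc
Mcm10: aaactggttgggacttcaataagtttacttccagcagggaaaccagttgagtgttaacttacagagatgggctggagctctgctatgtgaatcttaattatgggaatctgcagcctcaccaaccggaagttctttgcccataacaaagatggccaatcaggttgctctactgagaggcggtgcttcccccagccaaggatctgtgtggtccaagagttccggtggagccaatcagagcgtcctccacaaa

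Of the 11 licensing genes, 7 rose in LATS KO (Orc1, Cdc6, Mcm2, Mcm3, Mcm5, Mcm6 and Mcm7) and 9 in Yap OE (these and Cdt1 and Mcm4). Cdc6, the ATPase that loads MCM rings onto origins, had 0.607, 3.86 and 12.7 CPM at the lowest, median and highest LATS KO library and 7.14, 5.11, 4.45, 4.72 and 4.00 CPM in the Yap OE libraries, against 0, 0.166, 0 and 0 CPM in the TdTomato libraries. Only 1 control library held any Cdc6 count, and the groups did not overlap in either comparison. Because the controls held 3 counts in all, the ratio of CPM is given, which was 90.8 (95% interval 30.9 to 442) in LATS KO and 111 (95% interval 37.9 to 541) in Yap OE, for counting error only. The adjusted p was 0.00750 and 0.00335. Orc1, the largest subunit of the origin recognition complex, also had 3 control counts, and its CPM ratio was 28.2 (95% interval 9.47 to 138) in LATS KO and 27.1 (95% interval 9.12 to 133) in Yap OE (adjusted p = 0.0185 and 0.0128).

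Of the 6 MCM helicase subunits, 5 rose in LATS KO and 6 in Yap OE. Mcm5 had 7.09, 29.3 and 75.3 CPM at the lowest, median and highest LATS KO library and 69.6, 41.4, 36.0, 42.7 and 57.2 CPM in the Yap OE libraries, against 0, 4.14, 3.10 and 1.96 CPM in the TdTomato libraries. Every LATS KO and Yap OE library was above every TdTomato library. Mcm5 rose by 3.93 ± 0.87 on the log2 scale in LATS KO (adjusted p = 0.0122) and by 4.41 ± 0.90 in Yap OE (adjusted p = 0.00419). For Mcm6, values were 12.6, 38.0 and 118 CPM at the lowest, median and highest LATS KO library and 118, 67.0, 58.7, 73.7 and 99.9 CPM in the Yap OE libraries, against 0, 6.57, 5.96 and 2.54 CPM in the TdTomato libraries. Again the groups did not overlap, although LATS KO ran widely between its own libraries. Mcm6 rose by 3.82 ± 0.94 on the log2 scale in LATS KO (adjusted p = 0.0186) and by 4.47 ± 0.98 in Yap OE (adjusted p = 0.00565). The values of Mcm2 were 4.63, 18.8 and 39.5 CPM at the lowest, median and highest LATS KO library and 42.4, 32.6, 28.2, 26.2 and 24.7 CPM in the Yap OE libraries, against 7.59, 6.18, 4.45 and 2.30 CPM in the TdTomato libraries. The lowest LATS KO libraries lay within the range of the controls, while all Yap OE libraries were above it. Mcm2 rose by 2.02 ± 0.59 on the log2 scale in LATS KO (adjusted p = 0.0400) and by 2.59 ± 0.62 in Yap OE (adjusted p = 0.00802). Mcm3 and Mcm7 rose by 2.66 ± 0.70 and 2.12 ± 0.56 in LATS KO (adjusted p = 0.0246 and 0.0248). In Yap OE they rose by 2.80 ± 0.71 and 2.32 ± 0.57 (adjusted p = 0.0105 and 0.00916). Mcm4 rose in Yap OE by 3.28 ± 0.86 (adjusted p = 0.0121), and its LATS KO value of 2.41 ± 0.81 did not pass (adjusted p = 0.0699).

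The other licensing genes were less uniform. Cdt1, which brings MCM rings to Cdc6, rose in Yap OE by 3.26 ± 0.83 (adjusted p = 0.0103) and had 2.51 ± 0.79 in LATS KO (adjusted p = 0.0519). Geminin (Gmnn), the inhibitor of Cdt1, had 0.72 ± 0.53 and 0.41 ± 0.54 (adjusted p = 0.440 and 0.616), where TdTomato 1 alone had 21.5 CPM against 4.85 to 5.57 in the other controls. Orc6, the smallest origin recognition subunit, had 1.41 ± 0.76 and 1.82 ± 0.79 (adjusted p = 0.272 and 0.0975). Without TdTomato 1 and LATS KO 3, Gmnn was 1.25 in LATS KO and 1.22 in Yap OE (adjusted p = 0.0357 and 0.0161). Orc6 also passed in both comparisons in that fit, at 0.90 and 1.41 (adjusted p = 0.0482 and 0.00276). Cdt1 and Mcm4 then passed in LATS KO as well, at 2.15 and 2.05 (adjusted p = 0.0141 and 0.0341).

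Several licensing calls in LATS KO ended when a single library was left out. In LATS KO the call ended for Orc1 without TdTomato 4 (adjusted p = 0.0607), for Mcm6 without TdTomato 4 (adjusted p = 0.0644) and for Mcm3 without TdTomato 2, 3 or 4 or LATS KO 2 (adjusted p = 0.0526 to 0.0802). The Mcm7 call in LATS KO ended without TdTomato 1, 2, 3 or 4 or LATS KO 2 (adjusted p = 0.0536 to 0.0662), and that of Mcm2 without any 1 library other than LATS KO 4, 5 or 6 or TdTomato 1 (adjusted p = 0.0531 to 0.112). No licensing call in Yap OE ended without any 1 library. Fitted fold changes, before taking log2, moved by over 1.5 times for some genes. The log2 fold change of Orc1 was 5.87 without TdTomato 2 and 3.96 without LATS KO 3 in LATS KO. In Yap OE it was 5.46 without TdTomato 2. The log2 fold change of Cdc6 moved to 9.63 without TdTomato 2 and 5.90 without LATS KO 3 in LATS KO. In Yap OE it moved to 9.77 without TdTomato 2, and without TdTomato 2 all controls stand at 0. Mcm3 was 3.29 without TdTomato 1 in LATS KO and 3.44 without TdTomato 1 in Yap OE. With both TdTomato 1 and LATS KO 3 left out, LATS KO log2 fold changes were 3.66 for Orc1, 5.59 for Cdc6, 3.32 for Mcm5, 3.03 for Mcm6, 1.44 for Mcm7 and 2.04 for Mcm2. In Yap OE they were 6.33 for Cdc6, 4.01 for Mcm5, 4.06 for Mcm6 and 2.84 for Mcm2. The Mcm2 call in LATS KO also ended in voom (adjusted p = 0.135) and with the unstranded counts (adjusted p = 0.123), and the Mcm7 call in voom (adjusted p = 0.141).

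Of the 6 genes that turn the loaded MCM ring into a moving helicase, 2 rose in LATS KO (Cdc7 and Gins2), and 3 rose in Yap OE (Cdc7, Gins2 and Cdc45) while 1 fell. Gins2, a subunit of the GINS ring of the active helicase, had 2.50, 7.11 and 13.8 CPM at the lowest, median and highest LATS KO library and 13.3, 6.19, 5.84, 7.68 and 15.4 CPM in the Yap OE libraries, against 0, 0.828, 0.794 and 0.766 CPM in the TdTomato libraries. Its groups did not overlap in either comparison. Gins2 rose by 3.58 ± 0.87 on the log2 scale in LATS KO (adjusted p = 0.0174) and by 3.99 ± 0.90 in Yap OE (adjusted p = 0.00612). Cdc7, the kinase that phosphorylates MCM with its partner Dbf4, had 0, 0.515 and 2.86 CPM at the lowest, median and highest LATS KO library and 1.94, 1.04, 0.823, 1.14 and 2.51 CPM in the Yap OE libraries, against 0, 0.0552, 0 and 0 CPM in the TdTomato libraries. A single count was found over all controls, and LATS KO 3 also had none. Its CPM ratio was 80.1 (95% interval 14.2 to 3187) in LATS KO and 96.5 (95% interval 17.1 to 3830.0) in Yap OE (adjusted p = 0.0240 and 0.00768). Cdc45, the third helicase component, had 1.49, 2.83 and 8.23 CPM at the lowest, median and highest LATS KO library and 8.71, 5.30, 5.84, 4.22 and 9.64 CPM in the Yap OE libraries, against 0, 2.10, 1.35 and 1.01 CPM in the TdTomato libraries. All Yap OE libraries were above the highest control, and LATS KO 4 and 6 were below it. Cdc45 rose by 2.59 ± 0.88 in Yap OE (adjusted p = 0.0382) and had 1.70 ± 0.83 in LATS KO (adjusted p = 0.217). Gins1 and Gins3, the other GINS subunits here, did not pass: Gins1 had 0.41 ± 0.58 in LATS KO and 0.26 ± 0.60 in Yap OE (adjusted p = 0.725 and 0.795), and Gins3 had 1.98 ± 1.05 and 2.52 ± 1.09 (adjusted p = 0.261 and 0.0945).

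Mcm10, which helps the helicase start to unwind DNA, was the 1 member that fell in Yap OE. It had 7.30, 10.5, 14.9, 149, 110.1 and 147 CPM in LATS KO 1 to 6 and 9.60, 18.7, 23.2, 9.72 and 19.8 CPM in the Yap OE libraries, against 30.2, 73.5, 170.2 and 65.7 CPM in the TdTomato libraries. LATS KO 1, 2 and 3 were below every control, LATS KO 4, 5 and 6 were above every control but TdTomato 3, and every Yap OE library was below every control. Mcm10 fell by 2.39 ± 0.81 on the log2 scale in Yap OE (adjusted p = 0.0381) and had −0.22 ± 0.76 in LATS KO (adjusted p = 0.901). The Yap OE call ended without any 1 library other than LATS KO 1, 2, 3, 4, 5 or 6 or TdTomato 1 (adjusted p = 0.0555 to 0.128), and with library size alone as the scaling (−1.82, adjusted p = 0.0561). In LATS KO the sign turned without TdTomato 3 (0.37). The summed CPM of an erythroid precursor list of 5 genes ran the same way: 8.66, 3.25, 20.8, 150.3, 125 and 164 in LATS KO 1 to 6 and 6.43, 18.1, 17.7, 7.33 and 19.3 in Yap OE, against 146, 156, 139 and 133 in TdTomato. Nearly all of it was Alas2, the red cell form of a heme synthesis enzyme, whose gene overlaps Apex2 on the other strand. Its part in the Mcm10 result was not tested.

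The LATS KO call of Gins2 ended without TdTomato 2 or 4 (adjusted p = 0.0517 to 0.0525), and that of Cdc7 without TdTomato 1, 2, 3 or 4 (adjusted p = 0.0543 to 0.0792). In Yap OE the Cdc45 call ended without TdTomato 3 or 4 or Yap OE 1, 2, 3, 4 or 5 (adjusted p = 0.0557 to 0.0907). The fitted Cdc7 value moved to 7.30 without TdTomato 2 and 4.61 without LATS KO 2 in LATS KO and to 8.01 without TdTomato 2 in Yap OE, again with all controls at 0 without TdTomato 2. When TdTomato 1 and LATS KO 3 were left out, LATS KO values were 3.06 for Gins2, 5.47 for Cdc7, 1.31 for Cdc45 and −0.28 for Mcm10, and Yap OE values were 3.60 for Gins2, 5.91 for Cdc7, 2.18 for Cdc45 and −2.67 for Mcm10. Gins1 passed in that fit in Yap OE (1.17, adjusted p = 0.0342), where TdTomato 1, its highest control at 16.9 CPM, was left out. Gins3 also passed there in Yap OE (2.12, adjusted p = 0.0351).

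Of 11 fork synthesis genes, 3 rose in LATS KO (Pole, Pcna and Lig1) and 6 in Yap OE (these and Pola1, Prim1 and Pold1). Lig1, the ligase that seals Okazaki fragments, had 7.96, 31.2 and 199 CPM at the lowest, median and highest LATS KO library and 59.5, 32.6, 31.7, 37.9 and 55.4 CPM in the Yap OE libraries, against 9.06, 1.93, 2.54 and 2.25 CPM in the TdTomato libraries. TdTomato 1 was the highest control, above LATS KO 5 and 6, and no Yap OE library overlapped the controls. Lig1 rose by 3.96 ± 0.92 on the log2 scale in LATS KO (adjusted p = 0.0144) and by 3.47 ± 0.91 in Yap OE (adjusted p = 0.0118). Pcna, the sliding clamp that tethers polymerases, had 38.3, 55.0 and 128 CPM at the lowest, median and highest LATS KO library and 95.4, 58.5, 50.3, 64.8 and 124 CPM in the Yap OE libraries, against 14.7, 26.0, 24.5 and 36.5 CPM in the TdTomato libraries. Neither group overlapped the controls. Pcna rose by 1.40 ± 0.38 on the log2 scale in LATS KO (adjusted p = 0.0286) and by 1.63 ± 0.39 in Yap OE (adjusted p = 0.00843). For Pold1, the catalytic subunit of the lagging-strand polymerase delta, values were 4.39, 12.1 and 28.1 CPM at the lowest, median and highest LATS KO library and 24.9, 20.0, 15.1, 17.9 and 20.8 CPM in the Yap OE libraries, against 0, 5.35, 4.69 and 3.11 CPM in the TdTomato libraries. Yap OE lay above all controls, and LATS KO 5 and 6 overlapped them. Pold1 rose by 2.58 ± 0.85 in Yap OE (adjusted p = 0.0333) and had 2.00 ± 0.81 in LATS KO (adjusted p = 0.130). Pola1, the catalytic subunit of the priming polymerase alpha, had 6.67, 10.3 and 23.9 CPM at the lowest, median and highest LATS KO library and 16.9, 11.8, 13.3, 12.1 and 14.1 CPM in the Yap OE libraries, against 5.11, 6.23, 6.12 and 3.54 CPM in the TdTomato libraries. Its levels did not overlap in either comparison, with a smaller difference than for Lig1. Pola1 rose by 1.38 ± 0.44 in Yap OE (adjusted p = 0.0288), and 1.31 ± 0.43 in LATS KO did not pass (adjusted p = 0.0606).

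Pole, the leading-strand polymerase epsilon, rose by 3.29 ± 0.99 in LATS KO (adjusted p = 0.0441) and 2.97 ± 0.99 in Yap OE (adjusted p = 0.0353). Prim1, the primase that makes the RNA primer, rose by 2.56 ± 0.90 in Yap OE (adjusted p = 0.0445), with 2.59 ± 0.89 in LATS KO (adjusted p = 0.0750). The clamp loader subunits Rfc3, Rfc4 and Rfc5 did not pass in either comparison. Their LATS KO values were −0.06 ± 0.47, 1.86 ± 0.86 and 0.01 ± 0.39, and their Yap OE values 0.77 ± 0.49, 1.67 ± 0.87 and −0.06 ± 0.40. TdTomato 1 was the highest control for Rfc3 and Rfc5 (18.1 and 17.3 CPM) and had none of Rfc4. Without TdTomato 1 and LATS KO 3, Rfc3 was 0.81 in LATS KO (adjusted p = 0.0359) and 1.50 in Yap OE (adjusted p = 0.000983). Rpa2, of the complex that coats single-stranded DNA, had 1.88 ± 0.80 and 1.91 ± 0.81, and Fen1, the flap nuclease, 2.07 ± 0.82 and 1.75 ± 0.83 (adjusted p = 0.0921 to 0.148 over the 4 values). Without TdTomato 1 and LATS KO 3 both passed in both comparisons. Rpa2 was then 1.01 and 1.49 (adjusted p = 0.0279 and 0.00194), and Fen1 1.29 and 1.34 (adjusted p = 0.0449 and 0.0165). In that fit Prim1 and Pola1 passed in LATS KO (adjusted p = 0.0194 and 0.0486), and Rfc4 in Yap OE (1.26, adjusted p = 0.0138).

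In LATS KO the call ended for Lig1 without TdTomato 2 or 4 (adjusted p = 0.0538 to 0.0543) and for Pcna without TdTomato 1, 2 or 3 or LATS KO 2 (adjusted p = 0.0587 to 0.0771). The Pole call in LATS KO ended without any 1 library other than LATS KO 4, 5 or 6 or TdTomato 1 (adjusted p = 0.0557 to 0.119) and in voom (adjusted p = 0.103). In Yap OE the calls ended for Pole without TdTomato 2 or 4 or Yap OE 1, 2, 3, 4 or 5 (adjusted p = 0.0508 to 0.0914), for Pola1 without TdTomato 2, 3 or 4 or Yap OE 1 (adjusted p = 0.0506 to 0.0843) and for Pold1 without TdTomato 3 or 4 or Yap OE 1, 2, 4 or 5 (adjusted p = 0.0545 to 0.0792). The Prim1 call in Yap OE ended without any 1 library other than LATS KO 3, 4, 5 or 6 or TdTomato 1 (adjusted p = 0.0525 to 0.0818). Lig1 moved to 4.77 without TdTomato 1 and 3.11 without LATS KO 3 in LATS KO and to 4.28 without TdTomato 1 in Yap OE. In the fit of the other 13 libraries, LATS KO values were 3.92 for Lig1, 0.92 for Pcna, 2.50 for Pole, 1.51 for Pold1 and 1.04 for Pola1, and Yap OE values 4.28 for Lig1, 1.44 for Pcna, 2.57 for Pole, 2.17 for Pold1 and 1.37 for Pola1.

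Among the 5 enzymes of nucleotide supply, 2 rose in LATS KO (Rrm2 and Tk1) and 4 in Yap OE (these, Rrm1 and Dut). Rrm2, the S phase subunit of ribonucleotide reductase, had 13.3, 39.0 and 136 CPM at the lowest, median and highest LATS KO library and 74.0, 19.5, 17.5, 21.02 and 65.0 CPM in the Yap OE libraries, against 2.87, 5.35, 4.92 and 4.55 CPM in the TdTomato libraries. The groups did not overlap in either comparison, and Yap OE 1 and 5 stood above the other Yap OE libraries. Rrm2 rose by 3.69 ± 0.76 on the log2 scale in LATS KO (adjusted p = 0.00933) and by 3.15 ± 0.75 in Yap OE (adjusted p = 0.00802). Tk1, the cytosolic thymidine kinase of the salvage route, had 27.3, 37.1 and 65.5 CPM at the lowest, median and highest LATS KO library and 56.9, 28.9, 21.4, 26.5 and 65.0 CPM in the Yap OE libraries, against 15.2, 23.2, 21.2 and 15.8 CPM in the TdTomato libraries. LATS KO lay above all controls, while the lowest Yap OE library was within their range. Tk1 rose by 1.17 ± 0.36 on the log2 scale in LATS KO (adjusted p = 0.0473) and by 1.08 ± 0.37 in Yap OE (adjusted p = 0.0390). Dut, which breaks down dUTP and so keeps uracil out of DNA, had 11.8, 15.3 and 43.4 CPM at the lowest, median and highest LATS KO library and 24.1, 13.9, 11.3, 14.5 and 35.5 CPM in the Yap OE libraries, against 4.18, 9.49, 7.07 and 10.1 CPM in the TdTomato libraries. Both groups lay above the controls. Dut rose by 1.36 ± 0.47 in Yap OE (adjusted p = 0.0412), with 1.38 ± 0.46 in LATS KO (adjusted p = 0.0683). Rrm1, the large subunit of the reductase, had 15.6, 31.2 and 90.7 CPM at the lowest, median and highest LATS KO library and 53.2, 35.1, 34.1, 41.9 and 48.8 CPM in the Yap OE libraries, against 0, 11.8, 11.3 and 9.77 CPM in the TdTomato libraries. Neither group overlapped the controls. Rrm1 rose by 2.37 ± 0.85 in Yap OE (adjusted p = 0.0479), with 2.47 ± 0.84 in LATS KO (adjusted p = 0.0724). Tyms, the thymidylate synthase, had 0.98 ± 0.42 and 0.35 ± 0.43 (adjusted p = 0.156 and 0.591).

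The Tk1 call in LATS KO ended without any 1 library other than LATS KO 1 or 6 or Yap OE 3 or 5 (adjusted p = 0.0503 to 0.128), as it did in voom (adjusted p = 0.0556) and with no filter (adjusted p = 0.0579). In Yap OE, Tk1 ended without TdTomato 1, 2, 3 or 4 or Yap OE 1 or 5 (adjusted p = 0.0547 to 0.102) and in voom (adjusted p = 0.1003), and Dut without TdTomato 1, 2, 3 or 4 or Yap OE 1, 4 or 5 (adjusted p = 0.0536 to 0.117). Rrm1 ended in Yap OE without any 1 library other than LATS KO 2, 3, 5 or 6 or TdTomato 1 (adjusted p = 0.0540 to 0.0904). With no filter on low counts, Rrm1 and Dut also missed the threshold in Yap OE (adjusted p = 0.0544 and 0.0526), and Rrm1 when only the groups compared were fitted (adjusted p = 0.0554). Leaving out TdTomato 1 and LATS KO 3 gave 3.08 for Rrm2, 0.91 for Tk1, 0.79 for Dut and 1.74 for Rrm1 in LATS KO and 2.99 for Rrm2, 0.98 for Tk1, 1.16 for Dut and 1.96 for Rrm1 in Yap OE. The Rrm1 value in LATS KO passed in that fit (adjusted p = 0.0368), as did that of Tyms (0.94, adjusted p = 0.0381).

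**Figure D4:**
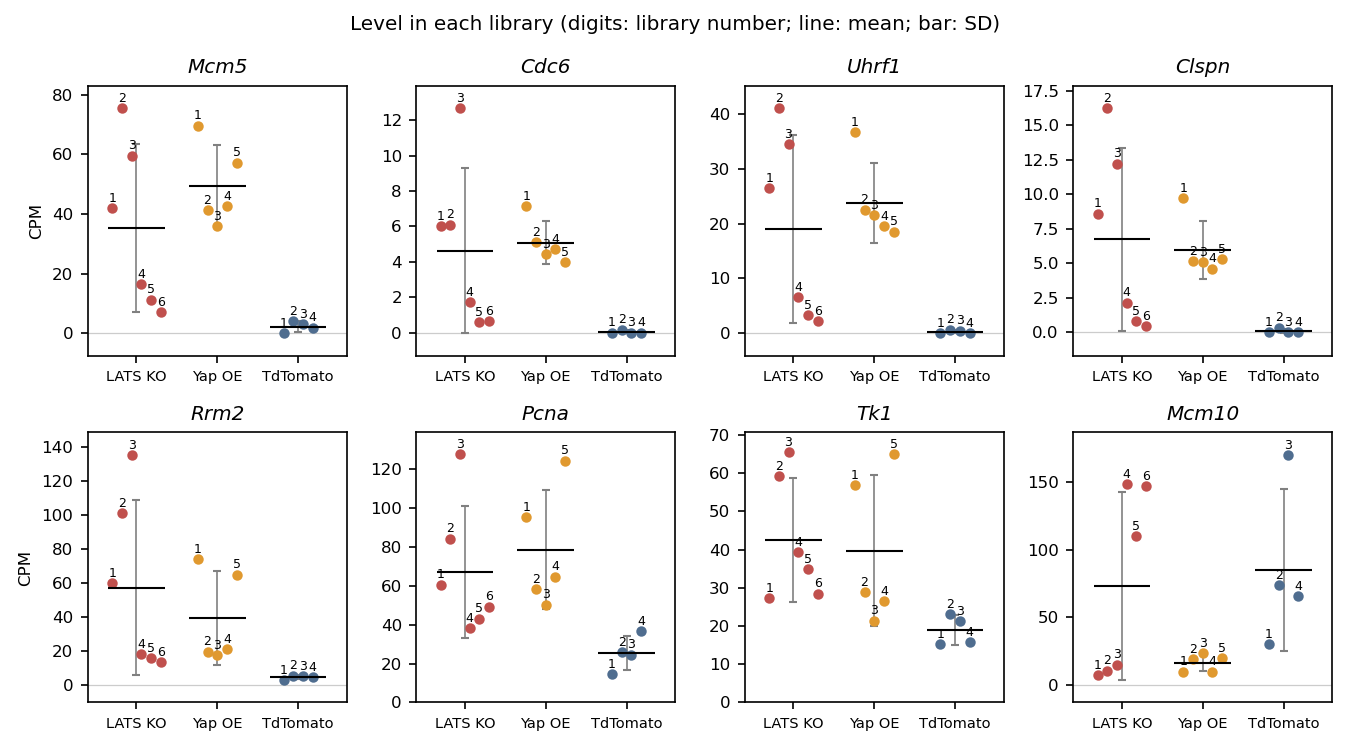
CPM of 8 genes in each library, with digits for the library number, lines for the group mean and bars for the SD (n = 6 LATS KO, 5 Yap OE and 4 TdTomato). Mcm5, Cdc6, Uhrf1, Clspn, Rrm2 and Pcna stand above TdTomato in every LATS KO and Yap OE library, Tk1 in every LATS KO library, and Mcm10 is lower in every Yap OE library.

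Of the 6 G1/S regulators, 2 rose in LATS KO (E2f7 and Ccne1) and 3 in Yap OE (these and E2f1). E2f7, an E2F that represses E2F targets, had 0.607, 2.78 and 15.6 CPM at the lowest, median and highest LATS KO library and 6.74, 2.15, 2.06, 1.68 and 3.02 CPM in the Yap OE libraries, against 0, 0.276, 0.397 and 0.0479 CPM in the TdTomato libraries. Its groups did not overlap, with 11 control counts in all. E2f7 rose by 4.82 ± 1.23 on the log2 scale in LATS KO (adjusted p = 0.0214) and by 4.10 ± 1.20 in Yap OE (adjusted p = 0.0204). E2f1, an activating E2F, had 7.99, 15.4 and 64.4 CPM at the lowest, median and highest LATS KO library and 47.8, 30.7, 21.3, 29.7 and 46.1 CPM in the Yap OE libraries, against 0, 6.01, 5.40 and 6.18 CPM in the TdTomato libraries. Neither group overlapped the controls. E2f1 rose by 2.99 ± 0.89 in Yap OE (adjusted p = 0.0216), with 2.50 ± 0.85 in LATS KO (adjusted p = 0.0724). Cyclin E1 (Ccne1), which with CDK2 drives entry into S phase, had 2.29, 4.07 and 8.01 CPM at the lowest, median and highest LATS KO library and 4.31, 2.00, 2.28, 2.43 and 4.66 CPM in the Yap OE libraries, against 0, 0.883, 0.397 and 1.15 CPM in the TdTomato libraries. All LATS KO and Yap OE libraries were above the controls. Ccne1 rose by 2.93 ± 0.83 on the log2 scale in LATS KO (adjusted p = 0.0338) and by 2.33 ± 0.82 in Yap OE (adjusted p = 0.0438). Cyclin E2 (Ccne2) had 0, 2.92 and 4.49 CPM at the lowest, median and highest LATS KO library and 6.31, 2.89, 2.66, 4.11 and 6.23 CPM in the Yap OE libraries, against 0, 1.49, 0.953 and 2.25 CPM in the TdTomato libraries. Yap OE lay above the controls and LATS KO overlapped them, with LATS KO 3 at 0. Ccne2 did not pass, at 1.28 ± 0.99 in LATS KO (adjusted p = 0.467) and 1.90 ± 1.04 in Yap OE (adjusted p = 0.190). E2f8, the other repressor of this kind, had 2.20 ± 0.95 and 1.55 ± 0.95 (adjusted p = 0.157 and 0.245). E2f2, an activator, had −0.79 ± 0.84 and −0.29 ± 0.88 (adjusted p = 0.623 and 0.848), with 13.0 CPM in TdTomato 1 and 2.68 to 2.92 CPM in the other controls.

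The E2f7 call ended in LATS KO without TdTomato 2 or 4 (adjusted p = 0.0609 to 0.0721) and in voom (adjusted p = 0.0587), and in Yap OE without TdTomato 4 (adjusted p = 0.0611). Ccne1 ended in LATS KO without any 1 library other than LATS KO 3, 4, 5 or 6, Yap OE 2 or 5 or TdTomato 1 (adjusted p = 0.0502 to 0.0965), and in Yap OE without any 1 library other than LATS KO 2 or 3 or TdTomato 1 or 4 (adjusted p = 0.0506 to 0.107) and with no filter (adjusted p = 0.0587). Fitted values of E2f7 moved to 5.46 without TdTomato 3 and 4.10 without LATS KO 3 in LATS KO, and to 4.74 without TdTomato 3 in Yap OE. Leaving out both libraries with mostly unmapped reads gave 3.76 for E2f7, 1.56 for E2f1, 2.52 for Ccne1, 1.13 for Ccne2 and 0.42 for E2f2 in LATS KO, and 3.75 for E2f7, 2.58 for E2f1, 1.92 for Ccne1, 1.49 for Ccne2 and 0.66 for E2f2 in Yap OE. E2f1 passed in LATS KO in that fit (adjusted p = 0.0442), as did Ccne2 in Yap OE (adjusted p = 0.0105).

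Genes that restore chromatin and DNA methylation behind the fork rose in 3 of 4 cases in LATS KO (all but Dnmt1) and 4 of 4 in Yap OE. Uhrf1, which binds half-methylated DNA and brings in Dnmt1, had 2.16, 16.5 and 41.0 CPM at the lowest, median and highest LATS KO library and 36.6, 22.5, 21.5, 19.5 and 18.5 CPM in the Yap OE libraries, against 0, 0.662, 0.477 and 0 CPM in the TdTomato libraries. It was at 0 in 2 controls, and the groups did not overlap. Uhrf1 rose by 6.03 ± 1.17 on the log2 scale in LATS KO (adjusted p = 0.00721) and by 6.36 ± 1.19 in Yap OE (adjusted p = 0.00293). Dnmt1, the maintenance DNA methyltransferase, had 13.8, 19.8 and 70.7 CPM at the lowest, median and highest LATS KO library and 65.4, 50.7, 49.8, 46.3 and 40.7 CPM in the Yap OE libraries, against 28.6, 16.7, 12.6 and 9.81 CPM in the TdTomato libraries. Yap OE was above every control, whereas LATS KO 3 to 6 overlapped them. Dnmt1 rose by 1.58 ± 0.49 in Yap OE (adjusted p = 0.0263) and had 0.91 ± 0.47 in LATS KO (adjusted p = 0.245). Chaf1a, the large subunit of the CAF-1 histone chaperone, had 4.15, 9.22 and 57.1 CPM at the lowest, median and highest LATS KO library and 19.0, 15.7, 14.1, 13.4 and 21.2 CPM in the Yap OE libraries, against 7.13, 1.38, 2.38 and 1.01 CPM in the TdTomato libraries. TdTomato 1 was the highest control and overlapped the LATS KO libraries. Chaf1a rose by 2.63 ± 0.80 on the log2 scale in LATS KO (adjusted p = 0.0467) and by 2.50 ± 0.81 in Yap OE (adjusted p = 0.0317). Chaf1b, its middle subunit, had 2.82, 5.64 and 19.2 CPM at the lowest, median and highest LATS KO library and 10.0, 5.67, 5.69, 6.36 and 11.0 CPM in the Yap OE libraries, against 0, 1.27, 1.11 and 1.34 CPM in the TdTomato libraries. Both groups were above all controls. Chaf1b rose by 3.17 ± 0.90 on the log2 scale in LATS KO (adjusted p = 0.0354) and by 3.04 ± 0.91 in Yap OE (adjusted p = 0.0224).

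Uhrf1 was called without each library in turn in both comparisons, and its fitted value was 6.99 without TdTomato 2 in LATS KO and 7.31 without TdTomato 2 in Yap OE. For Chaf1a the LATS KO call ended without any 1 library other than LATS KO 4, 5 or 6 or TdTomato 1 (adjusted p = 0.0624 to 0.128), and with the scaling factors of the RLE method (adjusted p = 0.0543) or no filter (adjusted p = 0.0512). Its LATS KO value was 3.53 without TdTomato 1 and 1.84 without LATS KO 3, and its Yap OE value 3.40 without TdTomato 1. For Chaf1b the LATS KO call ended without any 1 library other than LATS KO 3, 4, 5 or 6 or TdTomato 1 (adjusted p = 0.0508 to 0.0823). In Yap OE the call of Chaf1a ended without TdTomato 2, 3 or 4 or Yap OE 1 or 5 (adjusted p = 0.0547 to 0.0863), and that of Dnmt1 without TdTomato 2, 3 or 4 or Yap OE 1 (adjusted p = 0.0576 to 0.0789). After TdTomato 1 and LATS KO 3 were left out the values were 5.44 for Uhrf1, 1.39 for Dnmt1, 2.76 for Chaf1a and 2.35 for Chaf1b in LATS KO, and 6.01 for Uhrf1, 1.96 for Dnmt1, 3.41 for Chaf1a and 2.63 for Chaf1b in Yap OE.

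Among 5 genes of fork protection and repair, 1 rose in LATS KO (Clspn) and 2 in Yap OE (Clspn and Exo1). Clspn encodes claspin, the adaptor of the replication checkpoint kinase Chk1, and had 0.421, 5.38 and 16.2 CPM at the lowest, median and highest LATS KO library and 9.72, 5.15, 5.09, 4.61 and 5.29 CPM in the Yap OE libraries, against 0, 0.331, 0 and 0 CPM in the TdTomato libraries. A single control library held Clspn counts, 6 in all, and the groups did not overlap. Clspn rose by 6.16 ± 1.38 on the log2 scale in LATS KO (adjusted p = 0.0127) and by 5.99 ± 1.38 in Yap OE (adjusted p = 0.00695). Exo1, a nuclease of mismatch repair and end resection, had 0, 0.432 and 5.86 CPM at the lowest, median and highest LATS KO library and 4.46, 2.74, 3.55, 2.54 and 3.18 CPM in the Yap OE libraries, against 0, 0.331, 0.318 and 0.0958 CPM in the TdTomato libraries. All Yap OE libraries were above the controls, and LATS KO overlapped them, with LATS KO 3 at 0. Exo1 rose by 4.10 ± 1.30 in Yap OE (adjusted p = 0.0280), with 3.16 ± 1.23 in LATS KO (adjusted p = 0.113). Brca1, of homologous recombination and fork protection, had 2.22, 3.35 and 12.4 CPM at the lowest, median and highest LATS KO library and 9.11, 5.78, 6.02, 5.83 and 5.37 CPM in the Yap OE libraries, against 0, 2.48, 2.46 and 1.68 CPM in the TdTomato libraries. Yap OE was above the controls, and the lowest LATS KO library was not. Brca1 had log2 fold changes of 1.68 ± 0.83 and 1.95 ± 0.86 (adjusted p = 0.227 and 0.103). Brca2, which works in homologous recombination, had 1.26, 5.88 and 20.3 CPM at the lowest, median and highest LATS KO library and 8.52, 8.19, 8.79, 5.43 and 4.82 CPM in the Yap OE libraries, against 0, 3.42, 3.10 and 1.58 CPM in the TdTomato libraries. Yap OE was again above the controls, and LATS KO overlapped them. Brca2 had 2.06 ± 0.97 and 1.82 ± 0.98 (adjusted p = 0.201 and 0.186), and Mcm8, a helicase of recombination repair, 0.99 ± 0.99 and 1.33 ± 1.03 (adjusted p = 0.594 and 0.372).

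Clspn was called without each library in turn in both comparisons. Its fitted value was 10.18 without TdTomato 2 in LATS KO and 10.00 without TdTomato 2 in Yap OE, where all controls stand at 0, so that value is no bound. The Exo1 call in Yap OE ended without TdTomato 2, 3 or 4 or Yap OE 1 (adjusted p = 0.0513 to 0.0787). Without TdTomato 1 and LATS KO 3 the values were 5.55 for Clspn, 3.07 for Exo1, 1.38 for Brca1 and 1.18 for Brca2 in LATS KO, and 5.63 for Clspn, 3.74 for Exo1, 1.54 for Brca1 and 1.41 for Brca2 in Yap OE. Brca1 passed in Yap OE in that fit (adjusted p = 0.0273), as did Mcm8 (adjusted p = 0.0443).

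Set directly against LATS KO, Yap OE differed in none of the 48 genes by edgeR's quasi-likelihood test, where 0.988% of all genes were called, 0.498% higher and 0.490% lower. At an unadjusted p under 0.05, 0 of the 48 were higher and 1, Mcm10, lower, against 5.57% and 9.06% of all genes. DESeq2 called 0 higher and 0 lower, with 3.24% and 2.73% of all genes. Limma voom with sample quality weights called 31 higher and 1 lower, with 28.4% and 27.8% of all genes. The median log2 fold change of Yap OE over LATS KO was 0.10. The values ran from −2.17 ± 0.76 for Mcm10 (adjusted p = 0.190, and 6.3e-05 in voom) to 0.94 ± 0.96 for Exo1 (adjusted p = 0.771, and 3.4e-05 in voom). Every Yap OE library was above every LATS KO library for 1 of the 48 genes, Rfc3, against 4.76% of all genes tested. Rfc3 had 15.6, 12.3, 12.2, 12.9 and 17.3 CPM in Yap OE and 10.1, 9.46, 3.78, 7.54, 5.33 and 11.2 CPM in LATS KO, a log2 fold change of 0.83 ± 0.44 (adjusted p = 0.410). With TdTomato 1 and LATS KO 3 left out, Rfc3 passed in this comparison (0.69, adjusted p = 0.0405), the 1 member that did, beside 5.56% of all genes called higher. Standard errors of 0.32 to 0.96 for these genes leave sizable differences undetectable with these libraries.

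The spread between libraries differed between the groups. The coefficient of variation between libraries had a median over the 48 genes of 0.785 in LATS KO and 0.283 in Yap OE, beside 0.512 and 0.206 over all genes tested. The median level of the 48 genes was 11.0, 17.9, 20.2, 7.06, 5.70 and 5.41 CPM in LATS KO 1 to 6 and 15.9, 10.9, 11.4, 10.2 and 17.6 CPM in Yap OE 1 to 5, against 0, 3.89, 3.10 and 2.75 CPM in TdTomato 1 to 4. LATS KO 3 held the highest LATS KO value for 27 of the 48 genes and LATS KO 2 for 17, and LATS KO 6 held the lowest for 20. In 34 of the 48, LATS KO 1, 2 and 3 were each above LATS KO 4, 5 and 6, an order that 18.8% of all genes tested showed. With LATS KO 3 left aside, LATS KO 1 and 2 were each above LATS KO 4, 5 and 6 in 41 of the 48, against 34.7% of all genes. Marker sums of cholangiocytes split in the same places, and those of hepatocytes, endothelial cells and erythroid precursors split there in reverse order. Sums of macrophage, stellate cell, neutrophil and lymphocyte markers overlapped between these libraries. Endothelial markers summed to 72.8, 74.9 and 11.8 CPM in LATS KO 1, 2 and 3 and to 222, 194 and 148 CPM in LATS KO 4, 5 and 6. Cholangiocyte markers summed to 4443, 1971 and 1350 CPM in LATS KO 1, 2 and 3 and to 217, 108 and 145 CPM in LATS KO 4, 5 and 6. Hepatocyte markers summed to 87547, 77041 and 39216 CPM in LATS KO 1, 2 and 3 and to 168644, 155066 and 176449 CPM in LATS KO 4, 5 and 6. Yap OE 1 was the highest of its group for 26 genes and Yap OE 5 for 20. Both were above the other Yap OE libraries in 37 of the 48, against 22.1% of all genes. The proliferation marker Mki67 had 84.9, 216, 74.5, 29.9, 16.2 and 14.5 CPM in LATS KO 1 to 6 and 79.5, 32.9, 33.0, 19.4 and 46.2 CPM in Yap OE 1 to 5, against 6.97, 4.52, 3.49 and 0.479 CPM in TdTomato 1 to 4. It was highest in LATS KO 2 and in Yap OE 1, and every LATS KO and Yap OE library was above every control. Of the mapped reads, 17.2% to 25.8% fell in no gene in LATS KO 3 to 6, against 6.57% and 7.05% in LATS KO 2 and 1, and the part of these values in the order of libraries was not tested.

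**Figure D5:**
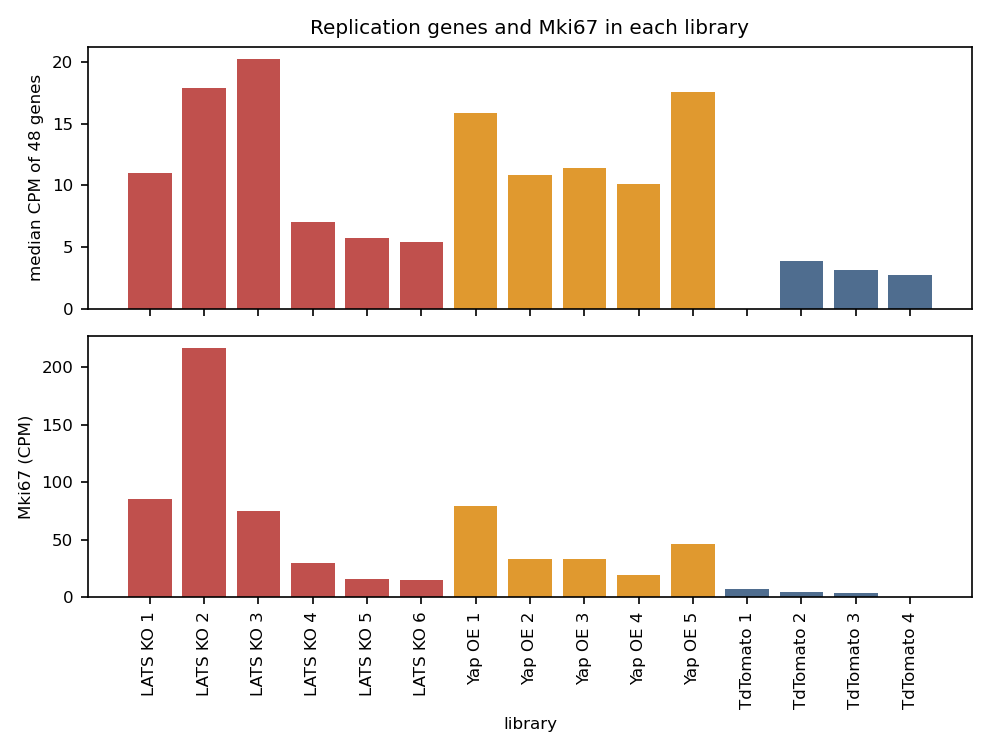
Median CPM of the 48 genes (upper panel) and CPM of Mki67 (lower panel) in each library, with LATS KO and Yap OE left of TdTomato. LATS KO 1 to 3 stand at 11.0 to 20.2 CPM in the upper panel and LATS KO 4 to 6 at 5.41 to 7.06, above TdTomato at 0 to 3.89.

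Divided by exon length, the levels of the genes could be set against each other. Pcna had the highest median, at 22.9 RPKM (counts scaled to depth and exon length) in LATS KO and 27.0 in Yap OE, against 10.5 RPKM in TdTomato. Mcm6 followed in Yap OE, with median levels of 8.14 RPKM in LATS KO and 15.8 in Yap OE, against 0.910 RPKM in TdTomato. Mcm7 had 8.84 RPKM in LATS KO and 13.6 in Yap OE, against 3.24 RPKM in TdTomato. In LATS KO it was Rrm2 that followed Pcna (14.1 RPKM), and in TdTomato it was Mcm10 (9.05 RPKM). At the low end of Yap OE, E2f7 had median levels of 0.309 RPKM in LATS KO and 0.239 in Yap OE, against 0.0180 RPKM in TdTomato. The lowest median in LATS KO was that of Exo1, at 0.0513 RPKM. Cdc7 had 0.123 RPKM in LATS KO and 0.273 in Yap OE, and its TdTomato median was at 0.

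A further 53 genes of replication, listed apart from the 48, were tested in the same fit. Of these 53, 6 rose in LATS KO (Pclaf, Ccna2, Ticrr, Pole2, Dbf4 and Asf1b) and 0 fell, with a median log2 fold change of 0.71. The share that rose was 11.3%, close to the 10.0% of all genes tested. At an unadjusted p under 0.05, 16 of the 53 were higher and 0 lower, against 20.0% and 5.23% of all genes. DESeq2 and voom called 16 and 11 higher and 0 lower, with 19.4% and 16.2% of all genes higher. In Yap OE 9 rose and 2 fell, with a median of 0.70. The share that rose was 16.98%, against 17.9% of all genes, and 10.8% of all genes fell, so by this test the counts are no higher than over all genes. By other measures more of them were higher. In 26 of the 53 every Yap OE library was above every control and in 1 below, against 28.3% and 13.4% of all genes. Without TdTomato 1 and LATS KO 3, 22 rose and 3 fell in Yap OE, beside 27.2% and 21.2% of all genes. Against LATS KO, Yap OE differed in none of the 53 by edgeR, with 0 higher and 1 lower at an unadjusted p under 0.05. Pclaf (2810417H13Rik in the files), a small PCNA-binding protein, had 1.69, 5.81 and 36.3 CPM at the lowest, median and highest LATS KO library and 13.1, 3.70, 2.88, 4.07 and 16.7 CPM in the Yap OE libraries, against 0, 0.276, 0.0794 and 0.0479 CPM in the TdTomato libraries. Neither group overlapped the controls. Pclaf rose by 6.72 ± 1.28 on the log2 scale in LATS KO (adjusted p = 0.00712) and by 6.19 ± 1.26 in Yap OE (adjusted p = 0.00415). Cyclin A2 (Ccna2), the cyclin of S phase, had 13.9, 30.1 and 102 CPM at the lowest, median and highest LATS KO library and 57.1, 18.1, 13.1, 15.2 and 48.3 CPM in the Yap OE libraries, against 0, 2.59, 1.91 and 0.335 CPM in the TdTomato libraries. The groups were again apart. Ccna2 rose by 5.12 ± 1.00 on the log2 scale in LATS KO (adjusted p = 0.00750) and by 4.64 ± 0.99 in Yap OE (adjusted p = 0.00493). Pole2, the second subunit of polymerase epsilon, had 1.38, 2.28 and 5.44 CPM at the lowest, median and highest LATS KO library and 4.95, 2.89, 2.88, 3.22 and 7.84 CPM in the Yap OE libraries, against 0, 0.386, 0.238 and 0.431 CPM in the TdTomato libraries. It did not overlap in either comparison. Pole2 rose by 3.28 ± 0.81 on the log2 scale in LATS KO (adjusted p = 0.0187) and by 3.98 ± 0.84 in Yap OE (adjusted p = 0.00486). Ticrr, which helps fire origins, had 2 control counts and a CPM ratio of 88.6 (95% interval 24.3 to 735) in LATS KO (adjusted p = 0.0184). Dscc1, of an alternative clamp loader, had 2 control counts as well and a CPM ratio of 78.5 (95% interval 21.6 to 651) in Yap OE (adjusted p = 0.00785).

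The genes that fell in Yap OE were Rbl2, a retinoblastoma-family protein that represses E2F targets, and Pole4, a small subunit of polymerase epsilon. Rbl2 had 27.2, 29.5, 31.5, 24.7 and 22.1 CPM in Yap OE, against 28.3, 53.2, 52.3 and 42.1 CPM in TdTomato, and fell by 0.70 ± 0.22 on the log2 scale (adjusted p = 0.0264). Pole4 had 16.2, 13.9, 13.5, 12.6 and 23.2 CPM in Yap OE, against 37.5, 22.4, 21.3 and 34.6 CPM in TdTomato, and fell by 0.86 ± 0.31 (adjusted p = 0.0462). TdTomato 1 lay within the Yap OE range for Rbl2, and Yap OE 5 lay above the lowest controls for Pole4. The Rbl2 call ended without TdTomato 2, 3 or 4 or Yap OE 1, 4 or 5 (adjusted p = 0.0502 to 0.0857), and with RLE factors (−0.53, adjusted p = 0.0614), library size only (−0.14, adjusted p = 0.693) and unstranded counts (−0.61, adjusted p = 0.141). That of Pole4 ended without any 1 library other than LATS KO 2, 3 or 6, Yap OE 5 or TdTomato 3 (adjusted p = 0.0505 to 0.124), and with library size only (−0.38, adjusted p = 0.328), RLE factors (adjusted p = 0.0744), no filter (adjusted p = 0.0721) and without TdTomato 1 and LATS KO 3 together (adjusted p = 0.0586). In LATS KO the Ticrr call ended without TdTomato 2 or 4 (adjusted p = 0.0562 to 0.0628) and the Pole2 call without TdTomato 2 or 3 (adjusted p = 0.0525 to 0.0593). Pclaf moved to 7.91 without TdTomato 2 and 5.95 without LATS KO 3 in LATS KO and 7.38 without TdTomato 2 in Yap OE, Ccna2 to 5.85 without TdTomato 2 and 5.37 without TdTomato 2, and Dscc1 to 8.72 without TdTomato 4 in Yap OE. Ticrr moved to 6.31 without TdTomato 3 and 4.66 without LATS KO 2 in LATS KO.

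Markers of mitosis and of some other cell types also differed between the groups. Mitosis genes, a list of 12 such as Mki67 and Plk1, were all higher in both comparisons, with summed levels of 110 to 757 CPM in LATS KO and 126 to 422 CPM in Yap OE, against 5.17 to 23.8 CPM in TdTomato. Macrophage and Kupffer cell markers summed to 133 to 974 CPM in LATS KO and 363 to 728 CPM in Yap OE, against 4.41 to 16.9 CPM in TdTomato, with 9 and 8 of 9 higher. Cholangiocyte markers, mostly Spp1, summed to 108 to 4443 CPM in LATS KO and 3790 to 6273 CPM in Yap OE, against 45.1 to 61.4 CPM in TdTomato, with 4 and 5 of 6 tested higher and Cftr at 0 in all controls. Endothelial markers were higher in 2 of 6 in each comparison, and stellate cell and fibroblast markers in 2 and 6 of 7, with Col1a1 at 0 in all controls. Neutrophil markers were higher in 1 of 3 tested in each, and the lymphocyte list stayed at or under 1.35 CPM in every library, with none tested. Hepatocyte markers summed to 39216 to 176449 CPM in LATS KO and 75541 to 132917 CPM in Yap OE, against 98526 to 171755 CPM in TdTomato, with 0 higher and 1 and 4 of 10 lower. The part of these markers in the replication gene results was not tested.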

How the data were processed

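The authors deposited raw gene counts per library in STAR's table format, with an unstranded column and 1 column a strand. Reads had been checked with FastQC, trimmed with Trimmomatic and aligned with STAR to mm10, per the submitters' processing notes, which give no versions. Directional libraries of polyadenylated RNA were made, per the labels' protocols, and the extraction text describes mice of another design, so no animal detail was taken from it. The reverse-stranded column was used, since the forward column held 0.966% to 1.99% of strand-assigned counts. Lines that name no gene (14.2% to 92.5% of reads) were left out of library sizes and tests. Reads over 2 genes of the same strand are not counted by STAR. The spans of Mcm7, Pold1, Dnmt1 and Clspn hold miRNA genes of the same strand, and whether this touched their counts was not checked.

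Counts went into edgeR 4.0.16 and its quasi-likelihood test (TMM factors, default filterByExpr, robust fit, R 4.3.3). A single fit of 15 libraries had 12 residual degrees of freedom, with two-sided p-values adjusted by Benjamini-Hochberg over 13055 genes and a threshold of 0.05. The steps were tested on simulated data. Intervals of CPM ratios (given for 3 or fewer control counts) are exact at 95% and cover counting error only. Alternatives were RLE factors, library size only, DESeq2 1.42.0, voom of limma 3.58.1, other filters (none, or 1 CPM in 4 libraries), unstranded counts, only the groups compared, each library left out, TdTomato 1 and LATS KO 3 left out, and a replicate block. In each role, the 4 genes with the smallest adjusted p in either comparison with TdTomato are given in full, and of the other replication genes the 4 with the smallest adjusted p in each direction. The members and lists were chosen with earlier results of these data known. Coordinates and exon lengths came from GENCODE M21, and promoter sequences from RefSeq. No 2 libraries of a group agreed within sampling noise (lowest chi-square per degree of freedom 26.3 over 31 pairs).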

Additional observations from a re-analysis of the deposited data

Results flagged for a closer look

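Within the LATS KO, Yap OE and TdTomato groups, 26 of 144 sets of CPM values (48 genes in 3 groups) held a library far from the nearest other by Dixon's ratio at the 95% level. For independent normal values that level flags about 1 in 20. The sets here share libraries and some hold ties at 0, so that rate is no measure of chance for them. In LATS KO, the highest value was far apart in LATS KO 3 for 7 genes: Orc1 at 6.22 CPM (others 0.135 to 1.73), Gmnn at 29.0 CPM (others 9.21 to 16.4), Prim1 at 43.1 CPM (others 4.87 to 13.2), Rfc4 at 25.0 CPM (others 3.55 to 8.84), Rpa2 at 47.1 CPM (others 9.91 to 22.9), Tyms at 41.9 CPM (others 11.8 to 21.1) and Dut at 43.4 CPM (others 11.8 to 20.8). In LATS KO 2 this held for Rfc5 at 16.1 CPM (others 7.33 to 10.5). In Yap OE it was Yap OE 1, for E2f7 at 6.74 CPM (others 1.68 to 3.02), Uhrf1 at 36.6 CPM (others 18.5 to 22.5), Brca1 at 9.11 CPM (others 5.37 to 6.02) and Clspn at 9.72 CPM (others 4.61 to 5.29). Among the controls, TdTomato 1 was far above the others for Gmnn at 21.5 CPM (others 4.85 to 5.57), Gins1 at 16.9 CPM (others 3.59 to 3.92), Rfc3 at 18.1 CPM (others 4.58 to 5.17), Rfc5 at 17.3 CPM (others 7.71 to 8.22), Lig1 at 9.06 CPM (others 1.93 to 2.54) and E2f2 at 13.0 CPM (others 2.68 to 2.92). It was far below them, at 0 CPM, for Gins2 (others 0.766 to 0.828), Prim1 (others 3.09 to 3.11), Rrm1 (others 9.77 to 11.8), E2f1 (others 5.40 to 6.18) and Chaf1b (others 1.11 to 1.34). TdTomato 2 was the only control above 0 for Cdc6 (0.166 CPM), Cdc7 (0.0552 CPM) and Clspn (0.331 CPM). TdTomato 1 and LATS KO 3 are the 2 libraries with mostly unmapped reads, and they hold 18 of the 26 values. The part of the mapping in these values was not tested.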

How the results depend on the processing

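Of the 48 genes, 20 were higher in LATS KO than in TdTomato, against 37 with DESeq2, 0 with only the groups compared, 11 with the replicate block and 6 to 22 without 1 library each. In Yap OE 31 were higher (19 to 32 without 1 library each) and 1 lower (0 with library size only, and 0 to 1 without 1 library each). Yap OE against LATS KO gave 0 higher and 0 lower, but 31 and 1 with voom, and 1 higher without TdTomato 1 and LATS KO 3. It gave 0 without 1 library each. Of the other 53 genes, those higher in LATS KO numbered 6, against 16 with DESeq2, 11 with voom, 0 with only the groups compared, 11 without TdTomato 1 and LATS KO 3, 2 with the block and 2 to 10 without 1 library each. In Yap OE the 9 higher became 17 with library size only, 21 with DESeq2, 29 with voom, 15 with only the groups compared, 22 without those 2 libraries, and 6 to 16 without 1 library each. The 2 lower became 0 with RLE factors, 0 with library size only, 6 with voom, 1 with no filter, 1 with the block and 0 to 3 without 1 library each. Yap OE against LATS KO gave 17 of them higher and 4 lower with voom, and 1 lower without the 2 libraries. All genes called numbered 1438 in LATS KO (2894 with DESeq2, 3504 with voom, 1 with only the groups compared, 2245 without the 2 libraries, 740 with the block, 588 to 1798 without 1 library each). In Yap OE they numbered 3744 (8872 with voom, 6416 without the 2 libraries, 2585 to 4973 without 1 library each). Between Yap OE and LATS KO they numbered 129 (779 with DESeq2, 7325 with voom, 1688 without the 2 libraries, 13 with the block, 36 to 389 without 1 library each). The causes of these shifts were not tested.

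Signs turned only in values that had not passed. In LATS KO, Mcm10 was 0.15 in voom and −0.55 to 0.37 without 1 library each. Rfc3 was 0.13 with library size only, 0.54 in voom, 0.81 without the 2 libraries, and −0.26 to 0.67 without 1 each. Rfc5 was −0.11 with only the groups compared, −0.011 with the block and −0.16 to 0.38 without 1 each. E2f2 was 0.42 without the 2 libraries and −1.28 to 0.16 without 1 each, and Brca2 was −0.17 in voom. In Yap OE, Rfc5 was 0.014 with RLE factors, 0.38 with library size only, 0.019 in DESeq2, 0.095 in voom, 0.31 without the 2 libraries and −0.23 to 0.31 without 1 each. E2f2 was 0.12 with library size only, 0.37 in voom, 0.66 without the 2 libraries and −0.60 to 0.65 without 1 each. Gins1 was −0.070 to 1.17 without 1 each, and E2f8 was −0.0011 with unstranded counts. Library size only moved the median of all genes to 0.46 in LATS KO and 0.73 in Yap OE, and RLE factors to 0.21 and 0.34, beside 0.13 and 0.17.

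Nothing in the labels says that the replicate numbers pair libraries across groups. Over 13 same-numbered pairs, correlations of deviations ran from −0.25 to 0.23, with 4 over 0.1. They were set against no reference, so they cannot decide whether the libraries were paired. With the block, 22 of the 48 were higher and 1 lower in Yap OE, where 3134 of all genes were called. The depth of the 4 controls, with 3 or fewer counts for Orc1, Cdc6 and Cdc7, limits how large those differences can be said to be.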
